A study of Mus musculus with 24 samples.

Results

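Small RNA from the hippocampus of 15-month-old mice was compared with small RNA from the hypothalamus at the same age, using 3 libraries of each tissue. These 6 libraries were chosen by their labels, from 12 small-RNA libraries and 24 samples in the series. The study dissected both tissues from male C57BL/6J mice at 2 and 15 months of age and sequenced mRNA and small RNA to follow early brain aging. The animals came from a commercial breeder, ORIENT BIO, and from the Gwangju Center of a national institute, KBSI, and which mouse came from which is not given in the sources used here. Mice of 15 months are numbered 4 to 6 in both tissues. The question asked of these libraries is which microRNAs (miRNAs) differ in level between the tissues in aged mice.

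A miRNA is a short RNA, cut from a hairpin precursor, that guides an Argonaute protein to messenger RNAs and lowers their translation and stability. Pairing runs mainly through the seed, bases 2 to 8 of the mature strand, and either arm of a hairpin, 5p or 3p, can be the one that is kept. Many miRNA genes lie within introns of other genes or in clusters transcribed together. The hippocampus, with its densely packed excitatory neurons, serves memory, whereas the hypothalamus holds many small groups of peptide-producing neurons that govern feeding, water balance, temperature and hormones.

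Mature sequences of the miRNAs on which the results turn are given from 5′ to 3′ with the seed in capitals, as RefSeq lists them for GRCm38.p6. Of 1650 mature names in the deposited tables, 1390 had an entry there, and 1382 had the same sequence in both. The first set holds miRNAs with large differences towards the hypothalamus.
miR-653-5p: gUGUUGAAacaaucucuacug
miR-489-3p: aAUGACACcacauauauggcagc
miR-217-5p: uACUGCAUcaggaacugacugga
miR-216a-5p: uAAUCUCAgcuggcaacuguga
miR-298-5p: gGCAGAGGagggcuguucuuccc
miR-296-5p: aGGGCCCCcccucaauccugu
miR-758-3p: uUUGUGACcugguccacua
miR-764-3p: aGGAGGCCauaguggcaacugu
miR-770-3p: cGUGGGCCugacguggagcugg

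The next set holds miRNAs with large differences towards the hippocampus.
miR-128-3p: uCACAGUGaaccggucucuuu
miR-218-5p: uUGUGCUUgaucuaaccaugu
miR-184-3p: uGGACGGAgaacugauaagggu
miR-139-5p: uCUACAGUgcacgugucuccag
miR-708-5p: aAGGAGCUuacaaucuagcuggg
miR-221-3p: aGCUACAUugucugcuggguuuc

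The third set holds called members of groups that share a seed, with the uncalled miR-212-3p beside miR-132-3p, and leaves out their other uncalled members.
miR-128-1-5p: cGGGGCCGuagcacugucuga
miR-128-2-5p: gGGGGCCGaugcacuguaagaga
miR-132-3p: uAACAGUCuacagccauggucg
miR-212-3p: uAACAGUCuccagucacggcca
let-7b-5p: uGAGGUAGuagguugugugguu
let-7c-5p: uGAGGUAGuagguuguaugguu
let-7d-5p: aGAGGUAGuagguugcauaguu
let-7i-5p: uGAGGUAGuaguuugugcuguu
miR-15a-5p: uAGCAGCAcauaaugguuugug
miR-16-5p: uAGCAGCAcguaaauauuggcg
miR-195a-5p: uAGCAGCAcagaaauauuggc
miR-497a-5p: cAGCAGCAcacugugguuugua
miR-10a-5p: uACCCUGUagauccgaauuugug
miR-10b-5p: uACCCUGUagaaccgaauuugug
miR-30a-5p: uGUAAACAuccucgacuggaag
miR-384-5p: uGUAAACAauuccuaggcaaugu

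The last set holds strands of miRNAs made from a pair of hairpins at separate loci, with a common 5p strand and differing 3p strands, which tell the loci apart.
miR-7a-5p: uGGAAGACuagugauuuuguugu
miR-7a-1-3p: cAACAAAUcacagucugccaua
miR-7a-2-3p: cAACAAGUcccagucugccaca
miR-135a-5p: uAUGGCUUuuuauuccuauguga
miR-135a-1-3p: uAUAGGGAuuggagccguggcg
miR-135a-2-3p: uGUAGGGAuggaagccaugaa
miR-218-1-3p: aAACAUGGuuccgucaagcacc
miR-218-2-3p: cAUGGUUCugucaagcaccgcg

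Reads counted to mature names totalled 8834531, 13819160 and 13536390 in hippocampal replicates 4, 5 and 6, and 13222530, 14180420 and 11048329 in hypothalamic replicates 4, 5 and 6. Hippocampal replicate 4 was thus the shallowest library. Between 947 and 999 names had a read in a hippocampal library and between 1037 and 1065 in a hypothalamic one, so every hypothalamic library held more names. The most abundant was miR-127-3p, from an imprinted cluster on chromosome 12, with 20.2%, 13.1% and 17.1% of the reads in the hippocampus and 23.8%, 21.7% and 30.1% in the hypothalamus. Across the tested names, which are not independent replicates, log2 levels correlated at 0.991 to 0.993 within the hippocampus, 0.989 to 0.995 within the hypothalamus and 0.967 to 0.987 between tissues.

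Of 1319 mature names with at least 1 read at 15 months, 715 had enough reads to be tested. A total of 170 (23.8%) differed between the tissues by more than 1.5-fold with an adjusted p-value under 0.05 in the quasi-likelihood test of edgeR with Benjamini-Hochberg adjustment, and these are referred to as called. The hippocampus had the higher level for 67 (9.37%) and the hypothalamus for 103 (14.4%), so that 39.4% of the calls were towards the hippocampus. With libraries scaled by total reads in place of TMM factors, 46 were higher in the hippocampus and 116 in the hypothalamus, which is 28.4%, and limma on log2(RPM + 1) put 30.0% towards the hippocampus. With the size factors of DESeq2 it was 75 and 95, which is 44.1%, and the DESeq2 Wald test gave 77 and 98. Leaving out replicate 4 of both tissues gave 109 calls, and leaving out any 1 library gave 115 to 172. The calls towards the hypothalamus fell to 65 and 66 without replicate 4 or 5 of both tissues and to 66 with the 6 libraries at 15 months fitted alone, and those towards the hippocampus to 44 without replicate 4. The libraries of one tissue lay wholly above those of the other for 269 names (37.6%), and for 161 of the 170 called. Levels are given in CPM, counts scaled to a common library size with TMM factors, in the order of replicates 4, 5 and 6. Log2 fold changes are hippocampus over hypothalamus, so negative values mean more in the hypothalamus. As these are bulk tissues, fewer cells of a type and less RNA per cell cannot be told apart for any of these values.

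The calls towards the hypothalamus were larger, and those towards the hippocampus were of more abundant miRNAs. The median fold of the called miRNAs was 1.93 towards the hippocampus and 2.31 towards the hypothalamus, with 2 and 15 of them over 4-fold. The median level was 85.6 CPM for miRNAs called higher in the hippocampus, 13.9 CPM for those called higher in the hypothalamus and 14.7 CPM for all tested names. Over all tested names the median log2 fold change was −0.06.

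**Figure D1:**
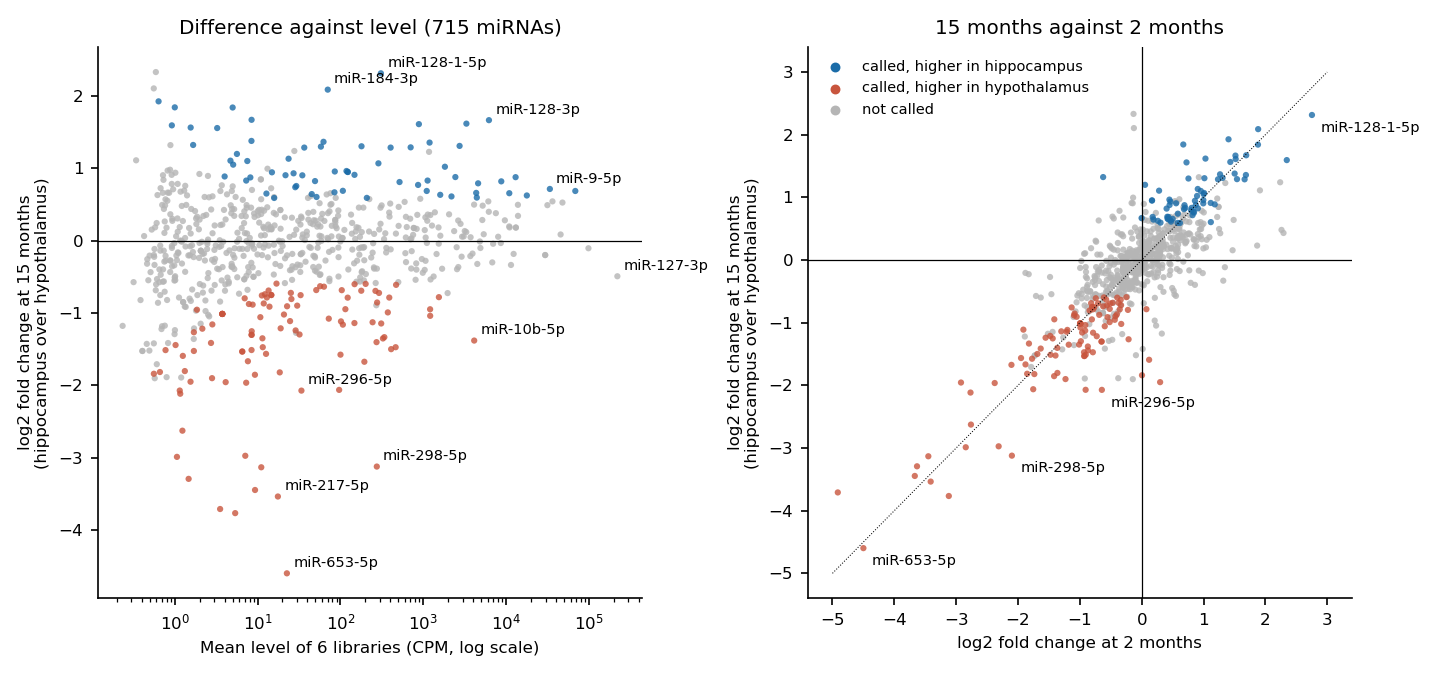
Log2 fold changes at 15 months (hippocampus over hypothalamus) of 715 miRNAs are plotted against the mean level of 6 libraries in CPM, on a log scale, and against the log2 fold change at 2 months, where the dotted line marks equal values. Called miRNAs are blue (67, higher in the hippocampus) or red (103, higher in the hypothalamus), and miR-653-5p lies lowest in both panels, at −4.60.

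The mRNA libraries labelled with the same mice were used to check the tissues, with the same calling rule, by which 18.0% of 15237 genes were called. All 10 hypothalamic marker genes were called higher in the hypothalamus, against 8.64% of all genes. Hcrt, the orexin precursor, was at 0.201, 0.0409 and 0.157 CPM in the hippocampus and at 41.7, 50.3 and 53.7 CPM in the hypothalamus. Pmch, the precursor of melanin-concentrating hormone, was at 0.924, 0.818 and 0.392 CPM against 81.5, 128 and 132 CPM, so that both mRNAs stood far apart between the tissues in every library. Of all genes, 9.37% were called higher in the hippocampus, among them the transcription factor gene Neurod6 at 118, 132 and 98.8 CPM against 2.08, 11.8 and 1.14 CPM. Its libraries did not overlap, with hypothalamic replicate 5 the highest of its tissue. The hippocampal markers C1ql2, Prox1 and Zbtb20 were not called.

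Markers of adjoining structures were present as well. The 3 thalamic markers, led by Prkcd, summed to 355, 80.3 and 541 CPM in the hippocampus and 591, 799 and 650.1 CPM in the hypothalamus, and 1 of them, Tcf7l2, was called higher in the hypothalamus. Hippocampal replicate 5 was the lowest. The 4 choroid plexus markers, led by Ttr, summed to 973, 1823 and 2854 CPM in the hippocampus and 282, 871 and 38.4 CPM in the hypothalamus, and 2 of them, Folr1 and Kl, were called higher in the hippocampus. Both sums varied widely within a tissue. Of 4 pituitary genes, Cga alone could be tested and was at 0 CPM in hippocampal replicates 4 and 6 and hypothalamic replicate 6, while Gh and Prl had 11 and 2 reads at most. The part of adjoining tissue in the miRNA differences was not tested.

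The miRNAs that differed most towards the hippocampus included several that are known as enriched in neurons. The strand miR-128-1-5p was at 509, 605 and 427 CPM in the hippocampus and 82.7, 119 and 108 CPM in the hypothalamus (log2 fold change 2.31, standard error 0.26, adjusted p = 3.6e-05 by edgeR). The major strand miR-128-3p, known to restrain neuronal excitability, was at 10904, 10598 and 6865 CPM and 2639.7, 2971 and 3320.2 CPM (log2 fold change 1.67, adjusted p = 3.75e-05 by edgeR). For both strands every hippocampal library lay above every hypothalamic one, with replicate 6 the lowest in the hippocampus. The 2 hairpins that give miR-128-3p lie in introns of R3hdm1 (chr1:128202361-128202430) and Arpp21 (chr9:112118636-112118711).

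Of 16 tested strands of neuron-enriched miRNAs, 9 were called higher in the hippocampus, against 9.37% of all tested names, and none in the hypothalamus, with a median log2 fold change of 0.76. Together they summed to 71584, 76611 and 63186 CPM in the hippocampus and 40499, 42947 and 38222 CPM in the hypothalamus. The most abundant, miR-9-5p, which comes from 3 hairpins and acts in neural progenitors and neurons, was at 39951, 46873 and 39222 CPM and 25759.9, 27693 and 23288 CPM (log2 fold change 0.72, adjusted p = 0.00221 by edgeR). Its tissues did not overlap. The log2 fold change was 0.82 for miR-124-3p, a classical neuronal miRNA, 0.81 for miR-137-3p and 0.83 for miR-138-5p, which acts on dendritic spines. The minor strand miR-124-5p was at 87.5, 98.4 and 62.5 CPM and 34.4, 33.4 and 33.0 CPM (log2 fold change 1.30). Its ratio to the 3p strand was not called as different between the tissues (5p minus 3p log2 fold change 0.48, adjusted p = 0.123 by edgeR). The 7 strands that were not called include all 3 tested strands of miR-129, miR-9-3p and miR-153-3p. With DESeq2, limma or total-read scaling the list also had 9 calls. More than 1 called strand came from each of miR-128, miR-124 and miR-138. The members of this and the other lists were chosen with earlier results of these data known. Their shares of calls are therefore a description and not an independent test.

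The activity-regulated miR-132, whose transcription follows CREB in neurons, was higher in the hippocampus as well. Its level was 4233, 4505 and 3013 CPM in the hippocampus and 1479.7, 1632 and 1625 CPM in the hypothalamus for the 3p strand (log2 fold change 1.31, adjusted p = 0.000993 by edgeR). The lowest hippocampal library was well above the highest hypothalamic one. The other strand, miR-132-5p, had a log2 fold change of 1.37. The neighbouring hairpin on chromosome 11 gives miR-212-3p, which has the same seed and was at 339, 262 and 202 CPM and 159.9, 159 and 219.7 CPM. These levels overlapped, and miR-212-3p was not called (log2 fold change 0.58, adjusted p = 0.0618 by edgeR), although it was without hippocampal replicate 6 (0.76) or hypothalamic replicate 6 (0.76), by DESeq2 (0.61) or with identical names merged (0.61).

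Further miRNAs with large differences towards the hippocampus came from single loci. Levels of miR-184-3p (chr9:89802260-89802328, outside annotated genes) were 152, 95.9 and 93.9 CPM in the hippocampus and 23.4, 26.9 and 30.0 CPM in the hypothalamus (log2 fold change 2.09, adjusted p = 0.00024 by edgeR). Those of miR-221-3p (chrX:19146294-19146388) were 1404, 1476 and 1128 CPM and 295, 597 and 419 CPM (log2 fold change 1.61, adjusted p = 0.00024 by edgeR). In both cases the tissues were fully apart. The adjacent miR-222-3p, of the same seed, had a log2 fold change of 1.29, and 3 of the 4 tested strands of this pair were called, each towards the hippocampus, against 9.37% of all tested names. For miR-139-5p, in an intron of Pde2a (chr7:101475376-101475443), levels were 1555, 1798 and 1796 CPM and 539.5, 745 and 725 CPM (log2 fold change 1.36, adjusted p = 0.000274 by edgeR), and miR-139-3p followed at 1.29. For miR-708-5p, in an intron of Tenm4 (chr7:96249424-96249532), they were 274, 297 and 197 CPM and 96.8, 95.4 and 119 CPM (log2 fold change 1.31, adjusted p = 9.03e-05 by edgeR). The hypothalamic libraries lay below all hippocampal ones for each of these miRNAs, as the choice of them required.

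**Figure D2:**
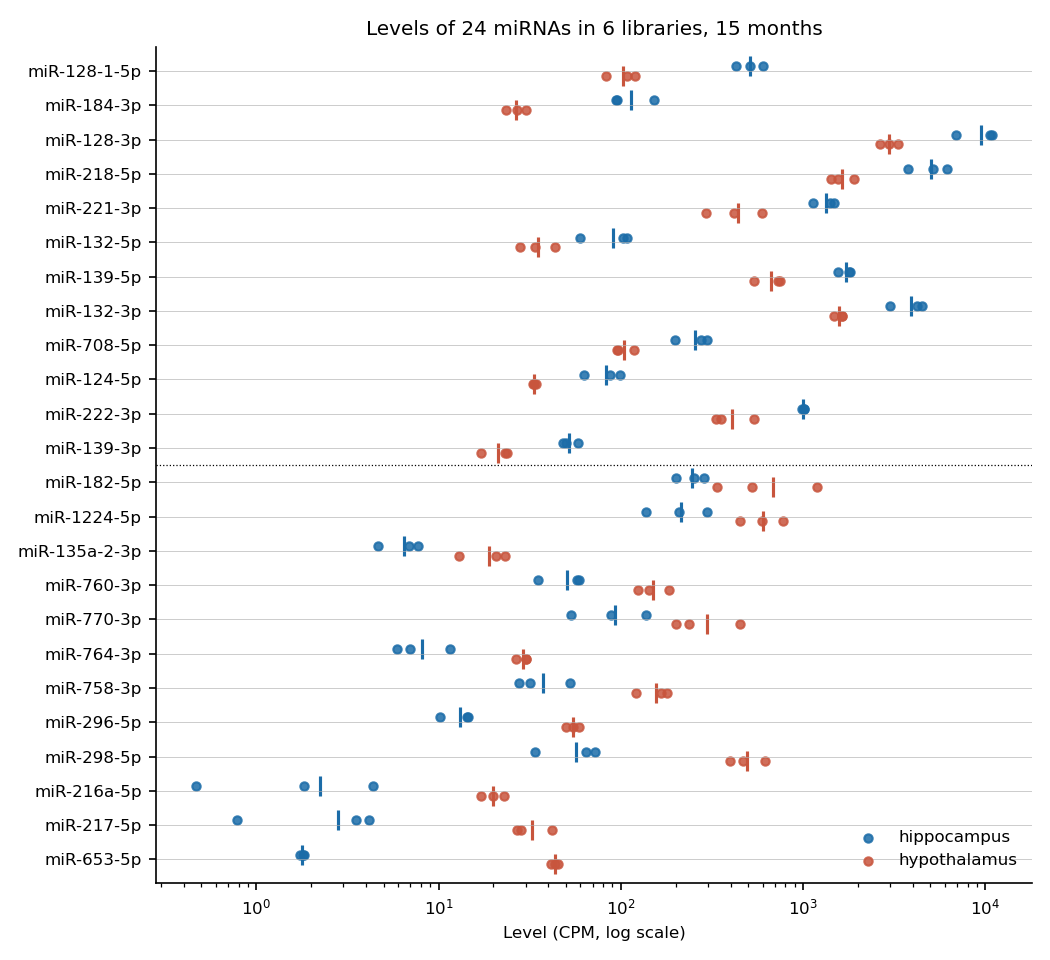
Levels in CPM, on a log scale, are shown for the 12 miRNAs per direction with the largest called change at a mean of at least 10 CPM, chosen among those without overlap between the tissues, with 1 point per library and a vertical tick at the mean of 3. Hippocampal points are blue and hypothalamic points red, and for miR-653-5p the gap runs from 1.83 to 41.6 CPM.

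The largest difference was that of miR-653-5p, which lies with miR-489 in an intron of Calcr, the calcitonin receptor gene (chr6:3721301-3721385 and chr6:3721897-3722003). It was at 1.83, 1.79 and 1.74 CPM in the hippocampus, from 14 to 23 reads a library, and at 45.1, 43.5 and 41.6 CPM in the hypothalamus, a 24.3-fold difference of means (log2 fold change −4.60, standard error 0.36, adjusted p = 1.52e-06 by edgeR). Within each tissue its level was nearly constant. Its neighbour miR-489-3p, chosen after its values were seen because its mean was under 10 CPM, was at 1.05, 0.390 and 0.831 CPM and 9.87, 9.46 and 10.6 CPM (log2 fold change −3.77, adjusted p = 2.22e-06 by edgeR). The host mRNA Calcr was at 1.21, 0.0818 and 0.431 CPM and 12.7, 12.1 and 15.3 CPM (log2 fold change −4.53, adjusted p = 5.88e-06 by edgeR). All 3 transcripts of the locus were thus low in each hippocampal and high in each hypothalamic library.

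Among miRNAs called without overlap at a mean of at least 10 CPM, a pair on chromosome 11 known for its abundance in the pancreas came next. For miR-217-5p (chr11:28763728-28763835) levels were 3.54, 0.779 and 4.16 CPM in the hippocampus and 28.2, 26.96 and 42.0 CPM in the hypothalamus (log2 fold change −3.54, adjusted p = 9.03e-05 by edgeR). For miR-216a-5p (chr11:28757012-28757083) they were 1.83, 0.468 and 4.38 CPM and 17.1, 19.8 and 23.0 CPM (log2 fold change −3.13, adjusted p = 0.000249 by edgeR). Both hairpins lie in introns of the noncoding gene Gm40818.

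Another pair, miR-298 (chr2:174267504-174267585) and miR-296 (chr2:174267047-174267125), lies outside annotated genes. For miR-298-5p levels were 64.0, 33.7 and 72.5 CPM in the hippocampus and 396, 467 and 618 CPM in the hypothalamus (log2 fold change −3.12, adjusted p = 2.22e-06 by edgeR). For miR-296-5p they were 14.4, 10.2 and 14.5 CPM and 54.9, 58.9 and 50.3 CPM (log2 fold change −2.07, adjusted p = 2.22e-06 by edgeR). No hippocampal library came near the hypothalamic range of either.

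Among miRNAs named for a large change towards the hypothalamus at a mean of at least 10 CPM, the remaining ones outside the groups described below had smaller or more variable differences. Levels of miR-760-3p were 58.9, 35.2 and 57.2 CPM and 124, 142 and 185 CPM (log2 fold change −1.57), and those of miR-1224-5p, in an intron of Vwa5b2 (chr16:20604452-20604536), were 298, 138 and 208 CPM and 596, 448 and 773 CPM (log2 fold change −1.50). Both were apart between the tissues, with a spread of under 3-fold within each. The sensory-organ miRNA miR-182-5p was at 253, 286 and 200.2 CPM and 1187, 526 and 336 CPM (log2 fold change −1.47, adjusted p = 0.00853 by edgeR), the hypothalamic values spreading from close to the hippocampal range to far above it, and without replicate 4 of both tissues it was not called (−0.83).

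Among abundant miRNAs, the Hox-embedded miR-10 family stood out towards the hypothalamus. The strand miR-10b-5p, from an intron of Hoxd4 (chr2:74726070-74726137), was at 2463, 1587 and 2820.2 CPM and 7735, 7119 and 3032 CPM (log2 fold change −1.38, adjusted p = 0.00957 by edgeR). Hypothalamic replicate 6 was close to the hippocampal range, and without hippocampal replicate 5 the call was lost (−1.19). For miR-10a-5p, from an intron of Hoxb3 (chr11:96317165-96317274), the tissues overlapped at 746, 732 and 1004 CPM and 1990.1, 2086 and 709.6 CPM (log2 fold change −0.95, adjusted p = 0.0444 by edgeR), and of the fits without 1 library only that without hypothalamic replicate 6 kept the call. With hippocampal replicate 4, 5 or 6 left out the log2 fold change was −0.90, −0.88 or −1.10, and without hypothalamic replicate 4 or 5 it was −0.75 or −0.69, all uncalled. It was not called with the mouse number as a block (−0.83), by limma (−0.90), with identical names merged (−0.89) or with counts summed over precursors (−0.93) either. The host mRNAs Hoxb3 and Hoxd4 had too few reads to be tested. A further abundant miRNA of this side, miR-1249-3p, was at 916, 921 and 1577 CPM and 1930.2, 1982 and 1952 CPM (log2 fold change −0.78, adjusted p = 0.0272 by edgeR), and of the fits without 1 library only that without hippocampal replicate 6 kept the call. Without hippocampal replicate 4 or 5 it was at −0.66 and −0.66, and without hypothalamic replicate 4, 5 or 6 at −0.79, −0.76 and −0.76.

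Genes that hold a miRNA in an intron or exon on the same strand were compared with it. Among 183 host genes tested as mRNA, 34 (18.6%) were called, against 18.0% of all tested genes. Of 24 hosts with a miRNA called towards the hippocampus, 11 were called the same way, 1 the other way and 12 not. Of 31 hosts with a miRNA called towards the hypothalamus, 10 were called the same way, 1 the other way and 20 not. Among the 131 hosts whose miRNAs were not called, 12 (9.16%) were called. Htr2c, Slit2 and Hnrnpk, with miRNAs called in both directions, are counted on both sides. Over 307 miRNAs from a single hairpin the log2 fold changes of miRNA and host correlated at 0.633 (Pearson) and 0.493 (Spearman), where several miRNAs share a host.

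Hosts with large differences in the same direction as their miRNA are on both sides. The cyclic nucleotide phosphodiesterase gene Pde2a was at 504, 539 and 404 CPM in the hippocampus and 136, 186 and 144 CPM in the hypothalamus (log2 fold change 1.64), and Arpp21, a neuronal phosphoprotein gene, was at 308, 393 and 272 CPM and 80.0, 79.0 and 74.1 CPM (log2 fold change 2.06). R3hdm1, host of miR-128-1, was at 1.04 on the log2 scale. Towards the hypothalamus, Baiap3, which acts in dense-core vesicle traffic, was at 25.8, 11.1 and 43.4 CPM and 291, 287 and 350.3 CPM (log2 fold change −3.53). Its intronic miR-3547-3p, named after its values were seen, was at 1.83, 0.624 and 2.27 CPM and 14.1, 14.5 and 22.7 CPM (log2 fold change −3.45). As with Calcr, host and miRNA were both separated between the tissues in all libraries. Other hosts were not called although their miRNA was. Tenm4 was at 180.1, 183 and 187 CPM and 164, 160.5 and 168 CPM (log2 fold change 0.16, adjusted p = 0.158 by edgeR), and Vwa5b2 had a log2 fold change of −0.34, under the limit of 1.5-fold.

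**Figure D3:**
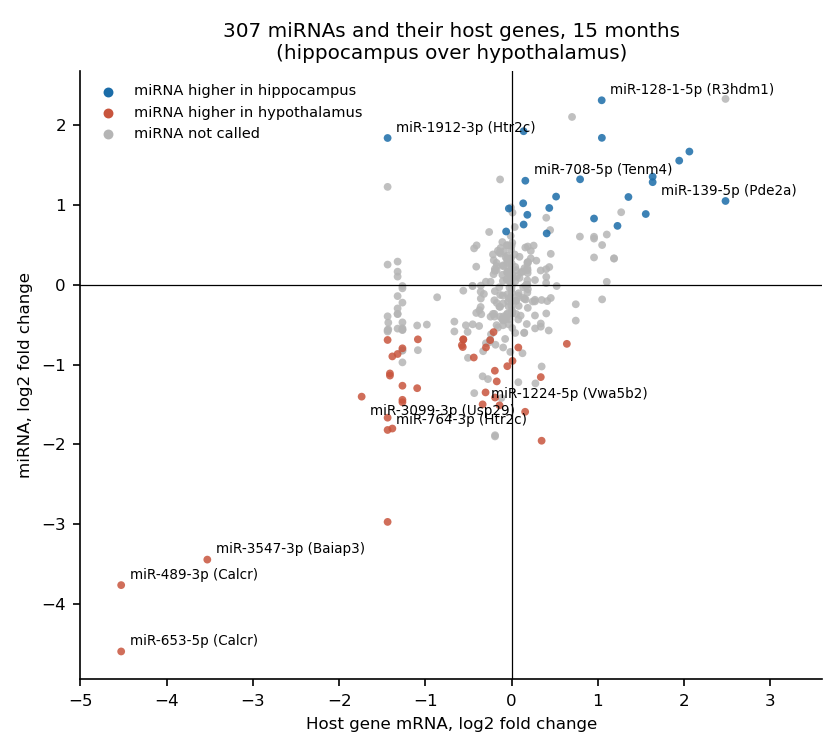
The log2 fold changes (hippocampus over hypothalamus, 15 months) of 307 miRNAs from a single hairpin are plotted against those of their host gene mRNAs, with called miRNAs in blue (higher in the hippocampus) or red (higher in the hypothalamus). Both miRNAs of Calcr lie far in the lower left, and miR-1912-3p of Htr2c in the upper left, at 1.84 against −1.44 for the mRNA.

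The serotonin receptor gene Htr2c holds a group of hairpins on chromosome X that differed in direction. Its mRNA was at 36.5, 42.3 and 79.4 CPM in the hippocampus and 148, 126 and 156 CPM in the hypothalamus (log2 fold change −1.44, adjusted p = 0.000412 by edgeR). Of 9 tested strands of the listed group, 3 were called towards the hypothalamus and 1 towards the hippocampus, against 14.4% and 9.37% of all tested names. The strand miR-764-3p (chrX:147002259-147002366) was at 6.94, 5.92 and 11.6 CPM and 30.4, 26.5 and 30.0 CPM (log2 fold change −1.82, adjusted p = 9.03e-05 by edgeR), and miR-448-5p had a log2 fold change of −1.67. The third, miR-1298-3p, at −0.69, overlapped between the tissues and lost its call without hippocampal replicate 4 (−0.56) or 5 (−0.58) or hypothalamic replicate 4 (−0.67) or 6 (−0.59), or with identical names merged (−0.65). Opposite to these, miR-1912-3p (chrX:147009441-147009527) was at 3.80, 8.18 and 11.6 CPM and 1.99, 3.74 and 0.759 CPM (log2 fold change 1.84, adjusted p = 0.0114 by edgeR). The highest hypothalamic library was just below the lowest hippocampal one, and the call was lost without hippocampal replicate 6 (1.48). The most abundant strand of the group, miR-1298-5p, was at 824, 1452.5 and 2668 CPM and 621, 1123 and 366 CPM and was not called. The choroid plexus mRNA markers summed to 973, 1823 and 2854 CPM and 282, 871 and 38.4 CPM. The part of choroid plexus in the levels and arm shares of this group was not tested. A further hairpin of the intron, miR-3552 (chrX:146999405-146999509), was named after its values were seen, at −2.97 on the log2 scale.

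For miR-218, miR-7a and miR-135a, each made from a pair of hairpins, the 3p strands of the loci differed in direction, and no count over all such pairs was made. The strand miR-218-5p, which marks motor neurons and is also made in forebrain neurons, comes from introns of Slit2 (chr5:48223942-48224051) and Slit3 (chr11:35616816-35616925), axon guidance genes. It was at 6146, 5129.8 and 3758 CPM in the hippocampus and 1420.0, 1562 and 1911 CPM in the hypothalamus (log2 fold change 1.62, standard error 0.21, adjusted p = 9.03e-05 by edgeR). From the Slit2 hairpin, miR-218-1-3p was at 5.89, 6.00 and 7.40 CPM and 18.9, 13.7 and 16.8 CPM (log2 fold change −1.35). From the Slit3 hairpin, miR-218-2-3p was at 6.55, 4.60 and 4.53 CPM and 1.61, 3.81 and 2.94 CPM (log2 fold change 0.89). The 3p strand was thus higher in the hypothalamus from one locus and higher in the hippocampus from the other, without overlap in either case. The call of miR-218-2-3p was lost without hippocampal replicate 4 (0.69) or 5 (0.96) or hypothalamic replicate 4 (0.61) or 6 (0.94), and its direction was kept in each. With the mouse number as a block (0.92) or total reads as the scale (0.80) it was not called. Among the host mRNAs, Slit3 was at 42.6, 46.4 and 45.5 CPM and 13.9, 17.8 and 14.1 CPM (log2 fold change 1.56, adjusted p = 1.12e-05 by edgeR), and Slit2 at 35.8, 39.7 and 45.5 CPM and 48.5, 47.0 and 53.7 CPM (log2 fold change −0.30, adjusted p = 0.0543 by edgeR).

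A like split appeared in miR-7a and miR-135a. The strand miR-7a-5p, abundant in neuroendocrine cells, comes from an intron of Hnrnpk (chr13:58392779-58392886) and from chr7:78888277-78888373, and was at 181.5, 275 and 294 CPM in the hippocampus and 467, 666 and 359.8 CPM in the hypothalamus (log2 fold change −0.99, adjusted p = 0.00743 by edgeR). From the Hnrnpk hairpin, miR-7a-1-3p was at 85.1, 144 and 110.4 CPM and 57.5, 75.7 and 41.4 CPM (log2 fold change 0.96). From the other hairpin, miR-7a-2-3p was at 20.6, 16.1 and 20.6 CPM and 26.7, 36.3 and 31.2 CPM (log2 fold change −0.72). So the Hnrnpk strand was higher in the hippocampus and the other in the hypothalamus, while Hnrnpk mRNA did not differ by the test (log2 fold change −0.03, adjusted p = 0.651 by edgeR). The call of miR-7a-2-3p was lost without hippocampal replicate 5 (−0.62) or 6 (−0.77) or hypothalamic replicate 5 (−0.59) or 6 (−0.71), and with the mouse number as a block (−0.72). The strand miR-135a-5p was at 108, 220.5 and 223 CPM and 524, 579 and 304 CPM (log2 fold change −1.35), with miR-135a-1-3p (chr9:106154124-106154213) at 1.20 and miR-135a-2-3p (chr10:92072086-92072185) at −1.56. Its common 5p strand and the 3p strand of the chromosome 10 hairpin were higher in the hypothalamus, and the 3p strand of the chromosome 9 hairpin in the hippocampus. With replicate 4 of both tissues left out, miR-7a-5p (−0.85) and miR-135a-1-3p (1.02) were not called, nor was miR-7a-5p without replicate 5 (−0.79).

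**Figure D4:**
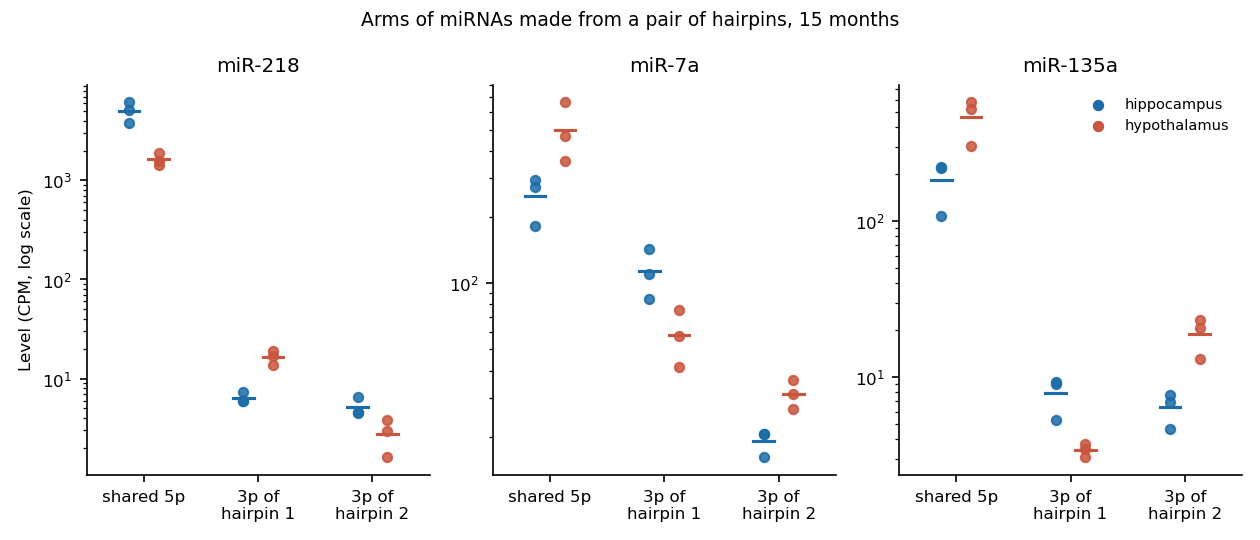
Levels in CPM, on a log scale, are shown for the 5p strand that a pair of hairpins has in common and for the 3p strand of each hairpin, with 1 point per library (blue hippocampus, red hypothalamus) and a bar at the mean of 3. Within each miRNA the 3p strands of the hairpins differ in direction, as for miR-135a-1-3p at 1.20 and miR-135a-2-3p at −1.56 on the log2 scale.

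Arms of 1 hairpin were also compared directly. The ratio of 5p to 3p reads differed between the tissues for 18 of 231 hairpins (7.79%) by the diffSpliceDGE test of edgeR, and 58 had an unadjusted p-value under 0.05. With the 6 libraries at 15 months fitted alone it was 8 of 215. The largest differences were those of miR-218-1 (2.97), miR-135a-1 (−2.55), miR-7a-1 (−1.95), miR-1298 (1.92) and miR-448 (−1.92), as 5p minus 3p log2 fold changes. The first 3 share their 5p strand with another hairpin, so the arms of 1 hairpin cannot be told apart from its twin. Of hairpins with strands of their own, miR-1298 had 88.5, 92.7 and 93.4% of its reads on the 5p arm in the hippocampus and 73.1, 85.7 and 59.9% in the hypothalamus (adjusted p = 0.0112 by edgeR). For miR-448 the 5p share was 3.44, 3.51 and 3.82% and 13.3, 8.73 and 17.0% (adjusted p = 0.0112 by edgeR). The 5p share was thus higher in each hippocampal library for miR-1298 and higher in each hypothalamic one for miR-448. The call of miR-1298 was lost without replicate 6 of both tissues (1.32) or with the 6 libraries alone (1.94), and that of miR-448 without replicate 4 (−1.89) or 6 (−1.74).

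The imprinted Dlk1-Dio3 region on chromosome 12, whose miRNAs are expressed from the maternal chromosome, holds the most tested miRNAs of any list. Of its 94 tested strands, 19 were called towards the hypothalamus and 4 towards the hippocampus, which is 24.5% called against 23.8% of all tested names. The median log2 fold change was −0.12, against −0.06 over all names. With total reads as the scale the calls were 21 and 1, and with DESeq2 size factors 17 and 6. Strands from the whole region made up 289063, 189178 and 216193 CPM in the hippocampus and 293467, 268249.7 and 380635 CPM in the hypothalamus. The tissues overlapped in this sum, where hippocampal replicate 4 lay above hypothalamic replicate 5, and the same library had the most miR-127-3p of the hippocampus. That strand was not called (log2 fold change −0.49, adjusted p = 0.073 by edgeR) but was so without this library (−0.72) or by limma (−0.59).

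Members of the region did not move together. At its start, miR-770-3p, from an exon of the noncoding RNA Meg3 (chr12:109563692-109563785), was at 138, 53.1 and 88.5 CPM and 238, 202 and 449.7 CPM (log2 fold change −1.67, adjusted p = 0.00266 by edgeR). Further along, miR-758-3p (chr12:109712810-109712890) was at 27.5, 31.7 and 52.5 CPM and 166, 180.3 and 121 CPM (log2 fold change −2.06, adjusted p = 3.37e-05 by edgeR). Both were apart between the tissues. Also higher in the hypothalamus were miR-134-5p (−1.33), which limits dendritic spine size, miR-666-5p (−1.14), miR-667-3p (−1.16) and miR-433-3p (−1.04). The other way, miR-337-5p was at 377, 412 and 380.5 CPM and 161, 186 and 209.8 CPM (log2 fold change 1.07, adjusted p = 0.000315 by edgeR), while miR-337-3p from the same hairpin was at 0.00 and not called. The other 3 called towards the hippocampus were miR-493-5p, miR-154-3p and miR-409-5p, each of which lost its call without any of 4 single libraries. For miR-493-5p (0.59) these were hippocampal replicates 4 (0.58) and 5 (0.53) and hypothalamic replicates 4 (0.53) and 6 (0.59). For miR-154-3p (0.65) they were hippocampal replicates 5 (0.65) and 6 (0.58) and hypothalamic replicates 4 (0.62) and 5 (0.61). For miR-409-5p (0.95) they were hippocampal replicates 5 (0.76) and 6 (0.94) and hypothalamic replicates 4 (0.86) and 6 (0.69). With total reads as the scale (0.50, 0.58 and 0.86) or by limma (0.47, 0.51 and 0.87) none of the 3 was called.

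**Figure D5:**
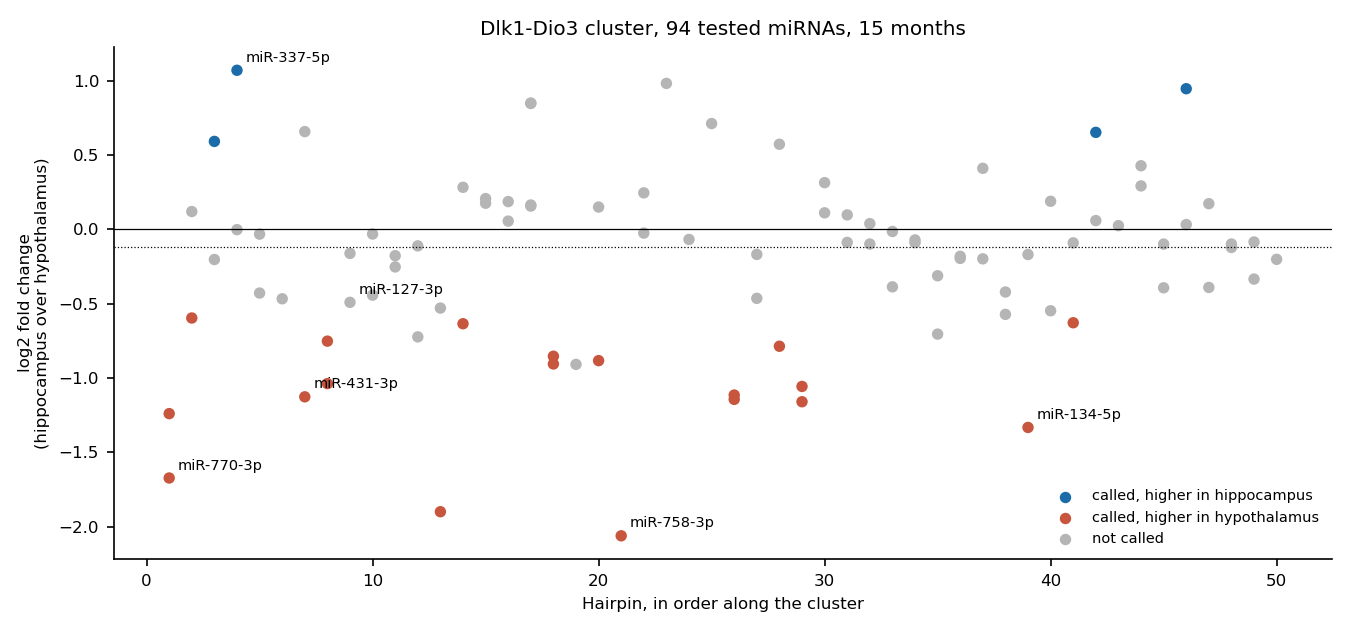
Log2 fold changes (hippocampus over hypothalamus) of 94 tested miRNAs of the Dlk1-Dio3 region are plotted by the order of their hairpins along the cluster, with the median as a dotted line. Red points (19, called higher in the hypothalamus) and blue points (4, called higher in the hippocampus) stand among uncalled grey ones, with miR-758-3p the lowest at −2.06.

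The rodent repeat cluster in an intron of Sfmbt2, also imprinted, was higher in the hypothalamus. Of 43 tested names, 17 were called towards the hypothalamus, against 14.4% of all tested names, and 0 towards the hippocampus, with a median log2 fold change of −0.97. With total reads as the scale, 18 were. Its repeated hairpins share mature sequences and reads. Over all 12 small-RNA libraries the 43 names hold 32 distinct sets of counts, of which 11 were called. The sets of miR-466a-3p and miR-466b-3p, both called, differ only at 2 months and are the same at 15 months. Over the 32 sets the median log2 fold change was −0.91. With each of the 32 sets entered once, so that miR-466a-3p and miR-466b-3p both count, the sums were low. They were 64.7, 54.8 and 70.9 CPM in the hippocampus and 107, 114 and 137 CPM in the hypothalamus, without overlap. The strands miR-669a-3p and miR-669o-3p, with identical counts, were at 3.14, 2.81 and 4.08 CPM and 9.18, 9.39 and 10.6 CPM (log2 fold change −1.53, adjusted p = 0.0018 by edgeR). The host mRNA Sfmbt2 was at 3.81, 3.27 and 3.37 CPM and 8.26, 6.996 and 9.91 CPM (log2 fold change −1.27, adjusted p = 8.1e-05 by edgeR), in the same direction and likewise apart.

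Among the 584 seeds of tested names, 17 had at least 2 called members, and 16 of these had all their calls in 1 direction. Some of these members share all their counts, and over members with distinct counts it was 12 of 13 seeds. Of 10 names with the let-7 seed, which act late in development and in neuronal maturation, let-7b-5p, let-7c-5p, let-7d-5p and let-7i-5p were called higher in the hippocampus. The most abundant of the 4, let-7c-5p, was at 24272, 21914 and 18689 CPM in the hippocampus and 13205, 14242 and 14597 CPM in the hypothalamus (log2 fold change 0.63, adjusted p = 0.00248 by edgeR). The tissues did not overlap, but the differences were close to 1.5-fold. Without hippocampal replicate 4 the calls of all 4 were lost (0.47, 0.51, 0.56 and 0.58 in the order named), and without hypothalamic replicate 4 those of the first 3 (0.58, 0.58 and 0.58). In the whole family of 23 tested strands 6 were called towards the hippocampus and 0 towards the hypothalamus, which is 26.1% against 23.8% of all tested names called and 9.37% called towards the hippocampus. With total reads as the scale 2 were called, and let-7b-5p, let-7c-5p, let-7d-5p and let-7i-5p were not (0.57, 0.53, 0.52 and 0.56), nor were they by limma (0.56, 0.53, 0.52 and 0.56).

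In the seed group of miR-15 and miR-16, known to restrain the cell cycle, miR-195a-5p differed most, at 520.2, 689.5 and 510.2 CPM in the hippocampus and 258, 283 and 163 CPM in the hypothalamus (log2 fold change 1.29, adjusted p = 0.000315 by edgeR). Its neighbour on chromosome 11, miR-497a-5p, followed at 0.90, and miR-16-5p, the most abundant of the family and made from 2 hairpins, at 0.79. The fourth call was miR-15a-5p at 0.59, lost without hippocampal replicate 4 (0.46) or hypothalamic replicate 4 (0.56) or 5 (0.55), with total reads as the scale (0.50) or by limma (0.50). All hippocampal libraries were above all hypothalamic ones for these 4. Of 10 tested strands in this family 4 were called towards the hippocampus, against 9.37% of all tested names, and 0 towards the hypothalamus.

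The seed with calls in both directions was that of miR-30a-5p and miR-384-5p. Higher in the hippocampus, miR-30a-5p was at 85860.2, 95401 and 72581 CPM and 56019, 56183 and 45376 CPM (log2 fold change 0.69, adjusted p = 0.00628 by edgeR). The strand miR-384-5p, from chromosome X and known from work on synaptic plasticity, was higher in the hypothalamus at 332, 394 and 392 CPM and 569, 648 and 488 CPM (log2 fold change −0.61, adjusted p = 0.00621 by edgeR). Neither overlapped between the tissues, and miR-30a-5p was by far the more abundant. The call of miR-30a-5p was lost without hippocampal replicate 5 (0.58), and that of miR-384-5p without hippocampal replicate 4 (−0.55) or hypothalamic replicate 5 (−0.49), by DESeq2 (−0.57), with its size factors (−0.57) or with identical names merged (−0.56).

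Further families were counted in the same way, where 9.37% of all tested names were called towards the hippocampus and 14.4% towards the hypothalamus. Calls towards the hippocampus and the hypothalamus numbered 2 and 0 of 9 for the miR-23, miR-27 and miR-24 clusters, where miR-24-3p was at 0.88, 2 and 0 of 11 for the miR-99 and miR-125 family, 2 and 0 of 7 for miR-29, 0 and 2 of 8 for miR-34 and miR-449, 0 and 1 of 8 for the miR-344 group, and 1 and 0 of 19 for the miR-17/92 clusters. With total reads as the scale none of the miR-29 calls remained. The abundant miR-99b-5p was at 14532, 16808 and 19337 CPM and 8662, 12520.2 and 6378 CPM (log2 fold change 0.88, adjusted p = 0.0238 by edgeR), and its call was lost without hippocampal replicate 5 (0.87) or 6 (0.78) or hypothalamic replicate 4 (0.84) or 6 (0.69). In the miR-181 family (7 tested), the miR-200 family (5 tested) and the X-linked cluster that holds miR-322 (9 tested) edgeR called 0, as did DESeq2 and limma, with 1, 1 and 0 strands at an unadjusted p-value under 0.05. The study names 7 miRNAs for changes with age, and not for a difference between the tissues. Of these, edgeR, DESeq2 and limma called 0 between the tissues, and 0 had an unadjusted p-value under 0.05. Their log2 fold changes were 0.38 for miR-322-3p, 0.32 for miR-322-5p, 0.25 for miR-542-3p, 0.17 for miR-412-5p, −0.13 for miR-5100, −0.41 for miR-8114 and 0.08 for miR-3084-3p.

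Few strands that mark other cell types were called. In the 9 marker lists, 3 of 36 tested strands were called, against 23.8% of all tested names, and 4 had an unadjusted p-value under 0.05. None of the 4 oligodendrocyte strands was called by edgeR, DESeq2 or limma, and they summed to 3588, 3983 and 4188 CPM in the hippocampus and 4572, 5729 and 4026 CPM in the hypothalamus, led by miR-338-3p. Likewise for 7 strands of microglia and leukocytes, led by miR-146a-5p, the sums were 1332, 1462 and 1292 CPM and 1292, 1306 and 1064 CPM. Both lists overlapped between the tissues. For 5 erythroid strands, led by miR-486a-5p, the sums were 23181, 25710.1 and 34922 CPM and 35698, 33869.6 and 26363 CPM, with miR-486b-5p, of the same counts, entered once. Sums were 15032, 12645 and 10819 CPM and 11183, 10898 and 11878 CPM for 2 endothelial strands, led by miR-126a-5p, and 55424, 44929 and 40735 CPM and 55712, 30827 and 46314 CPM for 2 strands of mural cells, led by miR-143-3p. For 6 strands of choroid plexus and ependyma, led by miR-204-5p, they were 9844, 10723 and 16722 CPM and 11672, 12814 and 8908 CPM, highest in hippocampal replicate 6. In each of these lists the ranges overlapped and 0 strands were called by the 3 tools.

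The called marker strands were 1 each of 3 further lists. Among 3 strands of meninges and fibroblasts, miR-199a-3p was higher in the hippocampus, at 125, 179.7 and 181 CPM and 118, 75.9 and 57.5 CPM (log2 fold change 0.95, adjusted p = 0.0292 by edgeR), a call lost without hippocampal replicate 5 (0.86) or 6 (0.87) or hypothalamic replicate 5 (0.90) or 6 (0.76) or with total reads as the scale (0.87). The libraries did not overlap, though the closest values were near each other. Of 3 muscle strands, miR-133a-3p was higher in the hypothalamus (log2 fold change −0.95), and the list summed to 109.9, 99.4 and 132 CPM and 213, 149 and 209.8 CPM. Of 4 pituitary and neuroendocrine strands miR-7a-5p was called and miR-375-3p was not, and the list summed to 400.5, 412 and 542.4 CPM and 702, 911 and 599 CPM. The sums of these last lists did not overlap. The part of these cells in the differences was not tested.

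The same contrast in 6 libraries of 2-month-old mice, which share no library with those of 15 months, gave 176 calls (24.6%), 73 (10.2%) towards the hippocampus and 103 (14.4%) towards the hypothalamus. Towards the hippocampus, 38 miRNAs were called at both ages, 56.7% of the calls at 15 months and 52.1% of those at 2 months. Towards the hypothalamus it was 70, which is 68.0% of each. None of the calls at 15 months was called the other way at 2 months, and 65 of 67 and 99 of 103 had the same sign. Across 715 names, which are not independent, the log2 fold changes of the ages correlated at 0.815, and across the 398 names of at least 10 CPM at 0.893. The log2 fold change at 2 months was −4.50 for miR-653-5p, −3.41 for miR-217-5p, 2.75 for miR-128-1-5p and 1.31 for miR-132-3p. Levels of miR-135a-1-3p overlapped between the tissues at 2 months. They were 3.56, 3.77 and 4.29 CPM in the hippocampus and 3.63, 3.55 and 3.97 CPM in the hypothalamus. Those of miR-7a-2-3p overlapped as well, at 33.2, 22.7 and 19.4 CPM and 25.5, 30.8 and 38.8 CPM.

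For the difference between the ages itself, the interaction of tissue and age over all 12 libraries, 1 of 715 names (0.140%) had an adjusted p-value under 0.05 by edgeR, and 22 had an unadjusted p-value under 0.05. It was miR-296-5p, with a log2 fold change of −2.07 at 15 months and −0.64 at 2 months. The difference of −1.43 had an adjusted p-value of 0.0215 by edgeR. It was not called without replicate 1, 2, 3, 4 or 5 of both tissues (−1.55, −1.43, −1.40, −1.50 and −1.21, adjusted p = 0.0789 to 0.343 by edgeR), nor with the mouse number as a block (−1.44, adjusted p = 0.108 by edgeR). It was called without replicate 6 (adjusted p = 0.0240 by edgeR), with total reads as the scale (adjusted p = 0.00859 by edgeR), and by limma (0.0135) and DESeq2 (7.35e-07). The neighbouring miR-298-5p, at −3.12 and −2.10, was not called for the interaction (adjusted p = 0.896 by edgeR).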

How the data were processed

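Small-RNA libraries of 3 mice per tissue and age, 12 in all, were read as whole-number counts per mature arm, which the authors made by trimming reads and aligning them to the mouse genome and miRBase with miRDeep2, as deposited. The highest count over precursors was taken for each mature name. Expected counts of the mRNA libraries, made by the authors with HISAT, Bowtie2 and RSEM and deposited per gene, were rounded. Tests used edgeR 4.0.16 (filterByExpr, TMM, quasi-likelihood, Benjamini-Hochberg over all names tested) in 1 fit of 4 groups, in R 4.3.3, where a call needs both a difference of more than 1.5-fold and an adjusted p under 0.05. Arm ratios were tested with diffSpliceDGE. Alternatives used DESeq2 1.42.0, limma 3.58.1, other scalings and filters, summed or merged names, the replicate number as a block, and libraries left out. Per the labels both tissues carry the same mouse numbers. Same-numbered libraries had correlations of their deviations of 0.0910, −0.0822, 0.301, −0.167, 0.540 and −0.132 over 397 names. Between different numbers they reached −0.683 (hippocampal replicate 4 with hypothalamic replicate 5) and 0.696 (hippocampal replicate 4 with hypothalamic replicate 6). With 3 libraries a group these values cannot decide on the pairing that the labels give, and the block is an alternative. The scripts were tested on simulated data. Figures used matplotlib 3.10.9. Loci and host genes come from RefSeq for GRCm38.p6.

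Named miRNAs are, per direction, the 12 called with the largest change at a mean of at least 10 CPM without overlap and the 5 called with the highest mean, then members of 31 lists, miRNAs called for the interaction, up to 5 hairpins with the largest arm difference, 7 miRNAs the study names, and host genes. The members and lists were chosen with earlier results of these data known. Among tested names, 30 in 14 groups share all counts with another.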

Additional observations from a re-analysis of the deposited data

Results flagged for a closer look

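The tissue difference of miR-296-5p differed between the ages by the test of the interaction, with a log2 difference of −1.43 (15 months minus 2 months, adjusted p = 0.0215 by edgeR). It was not called without replicate 1, 2, 3, 4 or 5 of both tissues (adjusted p = 0.0789 to 0.343 by edgeR), nor with the mouse number as a block (adjusted p = 0.108 by edgeR). It was called without replicate 6 and with total reads as the scale (adjusted p = 0.0240 and 0.00859 by edgeR), and by limma and DESeq2. Groups of 3 libraries were not tested for outlying samples.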

How the results depend on the processing

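No named and called miRNA changed direction under any setting, and 47 of 69 named and called miRNAs kept their call under all of them. Of all 170 called miRNAs, 72 were called under every setting, with the merging of identical names left aside. The named ones include those picked for a large change or a high level. The 170 calls were 157 to 191 under the other tests, scalings, filters and ways of counting names, more with no limit on the fold change, 122 with the 6 libraries at 15 months fitted alone, and 109 to 172 with replicates or single libraries left out (109 without replicate 4). The 67 calls towards the hippocampus were 44 to 77 with replicates or libraries left out. The 103 towards the hypothalamus were 65 to 98, and 66 with the 6 libraries alone, a fit with fewer samples. For the interaction with age, leaving out replicates gave 0 to 1 calls. Arm differences were 18, against 12 to 15 with replicates left out and 8 with the 6 libraries alone. Host genes were 33 to 34 with replicates left out. With the replicate block the calls were 165 (67 and 98), 156 in the 6 libraries alone (63 and 93), 20 arms, 34 hosts and 0 for the interaction (adjusted p = 0.108 for miR-296-5p by edgeR). Among the named miRNAs the block ended the calls of miR-10a-5p, miR-218-2-3p and miR-7a-2-3p that of miR-296-5p for the interaction and that of the arm ratio of miR-708 (0.82). Except for fits with fewer libraries, the cause of these changes was not tested. With 3 libraries a group, small differences in scarce miRNAs cannot be seen.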
